A study of Homo sapiens with 15 samples.

Results

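Proteasome genes were examined in bone marrow from mice carrying human MM.1S myeloma, a disease treated with drugs that block the proteasome. The set held 48 genes, chosen by symbol with a rule that used no measured values, though with earlier results of these data known: the PSMA, PSMB, PSMC, PSMD, PSME, PSMF and PSMG genes with ADRM1 and POMP. Of these 48, 47 were found among the 57773 genes of the count files, and all 47 passed the filter on low counts. PSMB3, a beta subunit, was not matched by identifier and was not analysed here. By role, the 47 comprised 7 alpha and 6 beta subunits of the 20S core, 5 immunoproteasome genes, 6 ATPases and 12 other subunits of the 19S cap, 8 assembly factors and 3 other regulators.

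The 26S proteasome degrades proteins that carry ubiquitin chains. Its 20S core is a barrel in which outer rings of alpha subunits gate the entry and inner rings of beta subunits cut the substrate. PSMB5, PSMB6 and PSMB7 are the catalytic beta subunits, and bortezomib binds mainly the chymotrypsin-like site of PSMB5. In the immunoproteasome, induced by interferon and common in cells of the blood lineage, PSMB8, PSMB9 and PSMB10 take the places of PSMB5, PSMB6 and PSMB7. The 19S cap binds, unfolds and strips ubiquitin from substrates. Plasma cells and the myelomas derived from them make large amounts of immunoglobulin and depend strongly on this machinery. When the proteasome is inhibited, cells are known to raise transcription of nearly all subunit genes through NRF1, the product of NFE2L1, which is normally degraded by the proteasome and is processed by NGLY1 and DDI2 when it escapes.

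The tumour came from MM.1S, an established human cell line of multiple myeloma, marked here with GFP and luciferase and given by vein to immunodeficient SCID-beige mice. All animals of the 5 groups carried this tumour, and the labels set the groups apart by treatment: PBS as the control (called saline in the protocol), bortezomib at 0.25 mg/kg once a week, elesclomol at 25 mg/kg, both drugs together (combination), and bortezomib with elesclomol started 14 days after inclusion (delayed combination). Elesclomol is a copper ionophore. Treatment was assigned to 5 mice per group, and 3 tumours per group were sequenced, so n = 3 in every group below. Mice were followed until paralysis of the limbs or severe toxicity, and the marrow was taken at paralysis, so the time on drug can differ between mice and is not given in the sources used here. The xenograft is 1 cell line in a host with few working lymphocytes, and its marrow also holds mouse cells. The labels call the samples separate tumours, and the p-values measure the spread between these 3 samples per group.

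NRF1 and its relative NRF2 bind, with small MAF proteins, a site known as the antioxidant response element. Its core, TGACNNNGC, was searched on both strands in windows of 300 bases, 250 before and 50 after the start site, taken from RefSeq (GRCh38.p14). Promoters were matched for 42 of the 48 genes, and 14 of the 42 (33.3%) held a match against 4687 of 35116 promoters of all genes (13.3%). Matches were found in 3 of 5 immunoproteasome promoters, 4 of 7 of assembly factors, 4 of 11 of 19S non-ATPases and 0 of 6 of alpha subunits. A match is a description of letters and not a bound site. Shown here are 6 of the matches that lie wholly before the start site, from genes whose levels are described below, each written from 5′ to 3′ on the strand of the gene with the match in capitals.
ADRM1: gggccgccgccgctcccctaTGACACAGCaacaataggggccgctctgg
PSMD12: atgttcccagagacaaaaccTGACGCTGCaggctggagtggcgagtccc
PSMD5: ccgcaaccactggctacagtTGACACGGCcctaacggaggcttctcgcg
PSMG1: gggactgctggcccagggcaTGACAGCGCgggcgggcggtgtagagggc
PSME1: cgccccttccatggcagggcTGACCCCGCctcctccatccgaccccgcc
PSMB9: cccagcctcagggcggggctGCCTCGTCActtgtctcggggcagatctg
The ADRM1 window is chr20:62302739-62302787 on the plus strand, with its match starting 137 bases before the start site. The PSMD12 window is chr17:67366714-67366762 on the minus strand and its match starts 165 bases before. For PSMD5 the window is chr9:120843028-120843076 on the minus strand (134 bases before), and for PSMG1 it is chr21:39183606-39183654 on the minus strand (183 bases before). The PSME1 window is chr14:24136088-24136136 on the plus strand (86 bases before). The PSMB9 window is chr6:32854024-32854072 on the plus strand (148 bases before), and its match reads on the opposite strand. No match was found in the matched windows of PSMB2, PSMB4, PSMB5, PSMC3 and POMP, which says only that these letters are not in these windows.

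The deposited counts summed to 4500326 to 13161087 per library, of which 13814 to 43471 fell on the 47 genes. PBS libraries held 4500326 to 6287708 counts. Those of the delayed combination held 11060930 to 13161087, more than any library of another group, so depth and treatment cannot be told apart for that group. Levels below are CPM, the counts of a gene relative to the size of its library after scaling by TMM factors. Myeloma genes marked every library, with the plasma cell surface protein SDC1 at 938 to 1391 CPM and the plasma cell factor XBP1 at 2071 to 2986 CPM. Of 34 marker genes of other marrow cells, 17 had fewer than 70 reads over the 15 libraries, and the erythroid HBA1 had 0. The erythroid markers summed to 10.9 to 37.1 CPM in 14 libraries and to 337 CPM in elesclomol 1, which was also highest for granulocyte markers (122 CPM). Stromal and bone markers summed to 54.2 to 69.7 CPM with PBS and to 67.3 to 204 CPM in the 12 treated libraries. Delayed combination 2 was the highest for these (204 CPM) and for macrophage markers, at 63.4 CPM against 11.8 and 15.6 CPM in the other libraries of its group. Elesclomol 1 stood at 60.6 CPM for the macrophage markers. Libraries also differed by the GC content of the genes. The correlation across genes between GC content and a library's deviation from the mean reached 0.51 for bortezomib 1, 0.50 for combination 1 and 0.31 for delayed combination 2, called the 3 GC-rich libraries from here on, against -0.29 to -0.35 for the PBS libraries. The part of host cells or GC content in the differences below was not tested beyond the values given with them. In bulk RNA, fewer cells of a type and less RNA per cell cannot be told apart.

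Over all 47 genes, the summed level ranged from 3084 to 4176 CPM. It was 3108, 3213 and 3285 CPM with PBS, 4176, 3304 and 3776 with bortezomib, 3325, 3354 and 3532 with elesclomol, 4070, 3084 and 3467 with the combination and 3530, 3948 and 3489 with the delayed combination. The highest sums belonged to the 3 GC-rich libraries, and combination 2 was the lowest of all. The mean was 3752 ± 437 CPM (SD, n = 3) with bortezomib and 3202 ± 88.9 CPM with PBS, and bortezomib 2, at 3304 CPM, lay close to PBS 3 at 3285 CPM. For 44 of the 47 genes the highest library was less than 2 times the lowest, from 1.23 times for PSMD14 to 2.66 times for PSMC1. The highest library was a GC-rich library for 34 of the 47 genes, 22 of them in bortezomib 1. The lowest was a PBS library for 19 genes. Within groups the genes were steady, with a median SD of 0.18 on the log2 scale against 0.22 over all tested genes. Deviations from the group means tended to run together among the beta subunits, the median over gene pairs of the correlation across the 15 libraries being 0.72. That median was 0.69 among the 19S non-ATPases, 0.66 among the immunoproteasome genes and 0.06 among the ATPases. It was not computed over all tested genes. The plot of summed levels by class shows every library for each class.

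**Figure D1:**
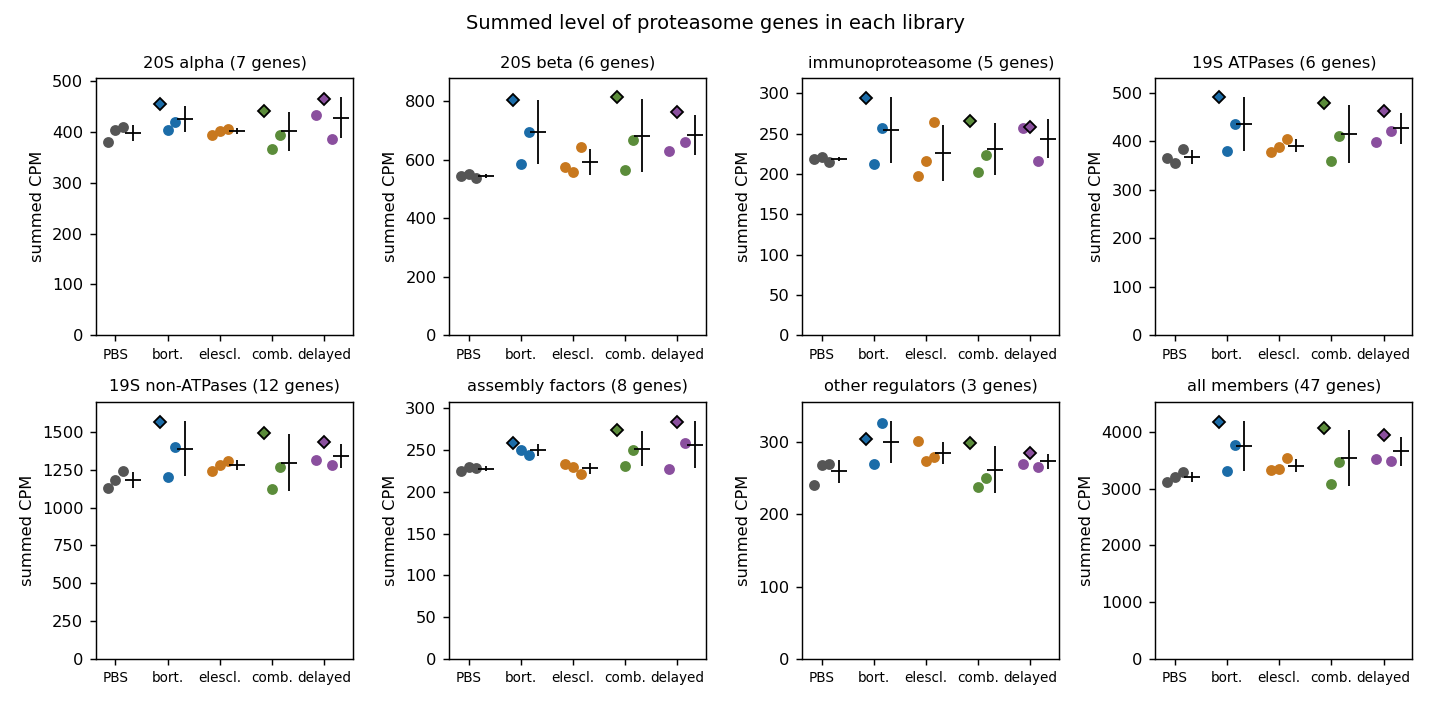
Summed CPM (vertical axes, from 0) of the genes of each class in every library, by group. Points are libraries, diamonds with a black edge are the 3 GC-rich libraries, and the horizontal mark with its bar is the mean ± SD of 3 libraries. The beta subunits of all 12 treated libraries sum to 559 CPM or more, above the 538 to 553 CPM of the PBS libraries. How often other sets of genes show this was not counted.

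No proteasome gene passed the test in any of the 9 comparisons. Each difference is given as a log2 fold change with its SE, tested by the quasi-likelihood method of edgeR, with p adjusted by Benjamini-Hochberg over the 13085 genes tested and 0.05 as the threshold. The 4 comparisons with PBS share its 3 libraries and are not independent. With bortezomib, 0 of 47 genes passed, as did 0% of all tested genes, and 9 of the 47 had an unadjusted p under 0.05, as did 10.6% of all tested genes. DESeq2 passed 0 of the 47 in this comparison, against 0.0688% of the genes it tested. Limma voom with sample quality weights passed 6 of the 47, all higher (PSMB2, PSMB4, PSMC5, ADRM1, PSMD5 and PSME3), against 5.66% of all tested genes. Libraries of bortezomib and PBS did not overlap for 10 of the 47 genes, all higher, against 10.5% of all tested genes higher and 9.61% lower.

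With elesclomol, 0 of the 47 passed edgeR's test, against 0.0688% of all tested genes, and 1 had an unadjusted p under 0.05, against 8.07%. DESeq2 and limma voom passed 0 of the 47 as well, against 0.375% and 0.413% of tested genes. The libraries did not overlap for 8 genes, all higher, against 9.55% of tested genes higher and 10.2% lower. With the combination 0 of 47 passed (0% of tested genes), and 3 had an unadjusted p under 0.05, against 13.6% of tested genes. DESeq2 passed 0 (0.432% of tested genes) and limma voom 3 (PSMB4, PSMC3 and ADRM1), against 10.7% of tested genes. Libraries did not overlap for 4 genes, all higher, against 11.3% higher and 10.9% lower of all tested genes. With the delayed combination 0 of 47 passed (0% of tested genes), and 7 had an unadjusted p under 0.05, against 11.1% of tested genes. DESeq2 and limma voom passed 0, against 0.414% and 1.28% of tested genes. Here 14 genes were higher and PSMC6 was lower without overlap, against 12.8% and 14.7% of all tested genes. By the unadjusted p with all 15 libraries, the members' share was above that of all genes with bortezomib and somewhat above it with the delayed combination. It was below that share with elesclomol and the combination. These counts leaned on single libraries. With bortezomib the count was 4 without bortezomib 1, 23 without bortezomib 2 and 5 without the 3 GC-rich libraries. With the delayed combination it was 1 without delayed combination 2, 7 without delayed combination 1 and 6 without the 3 GC-rich libraries. The share of all tested genes was not counted in those fits.

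Most members lay slightly above PBS in each treated group. With bortezomib 40 of 47 log2 changes were above 0, with a median of 0.22 against 0.019 over all tested genes. With elesclomol 33 were above 0, with a median of 0.075 (all tested genes 0.004), and the median was 0.082 without elesclomol 1, the library with the high erythroid markers. With the combination 32 were above 0, with a median of 0.11 (all tested genes 0.012). The delayed combination had 39 above 0 and a median of 0.14 (all tested genes 0.009). Each of these medians leaned on 1 library: it was 0.13 without bortezomib 1, 0.031 without elesclomol 3, 0.040 without combination 1 and 0.087 without delayed combination 2. ADRM1, the ubiquitin receptor of the 19S cap, was among the 4 genes with the smallest p in all 4 comparisons. PSMB2 was in that place in 3 of them. The plot of log2 changes by class shows where the classes part: the beta subunits lay above 0 throughout in the 3 groups given bortezomib, and the alpha subunits lay on both sides of 0.

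**Figure D2:**
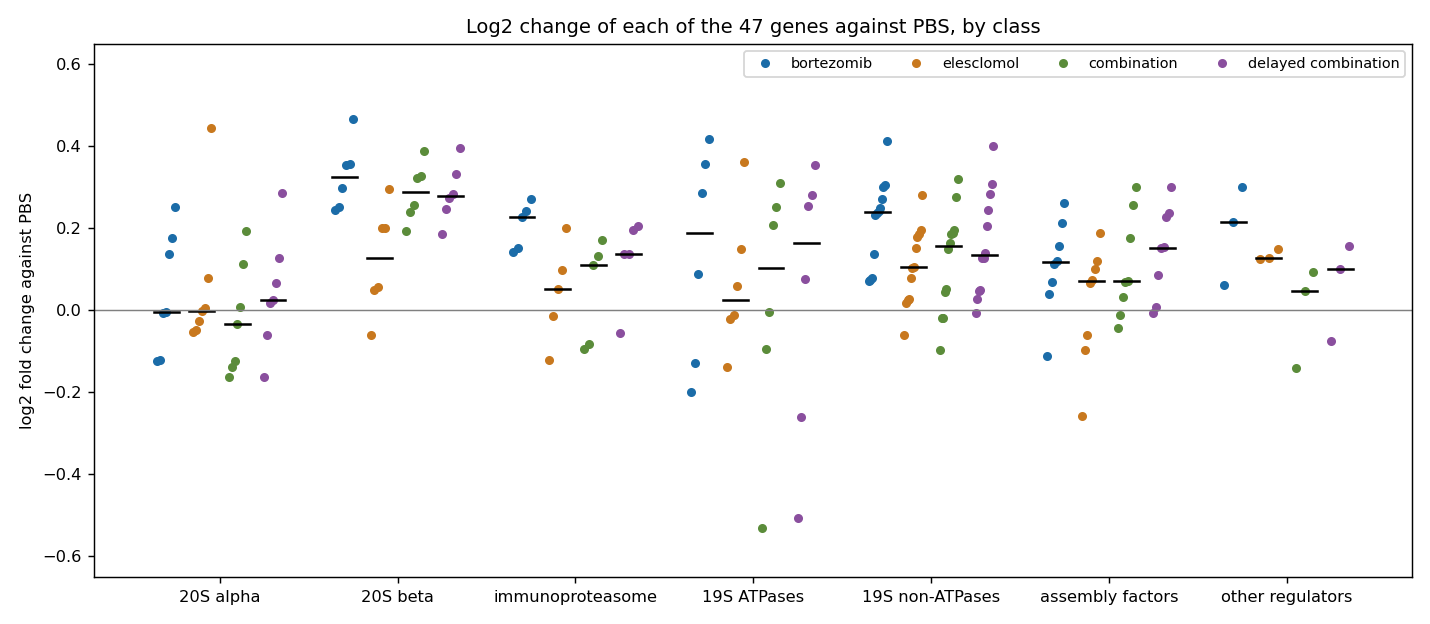
Log2 fold change against PBS (vertical axis) of each of the 47 genes, by class, with a colour for each treated group and a black line at the median of the class. All 6 beta subunits lie above 0 with bortezomib (0.25 to 0.47), the combination (0.20 to 0.39) and the delayed combination (0.19 to 0.40), and no gene passed the test.

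The alpha subunits form the outer rings of the core and its gate. As a class they stood close to PBS in every treated group, with a median of -0.004 with bortezomib (3 of 7 above 0), -0.002 with elesclomol (3 of 7), -0.033 with the combination (3 of 7) and 0.025 with the delayed combination (5 of 7). Their summed level was 380.2, 405 and 409.5 CPM with PBS, 454, 404 and 419 with bortezomib, 395, 402 and 407 with elesclomol, 443, 367 and 395 with the combination and 435, 465 and 387 with the delayed combination. All 5 groups overlapped, and delayed combination 2 was the highest library. PSMA7 had the highest level per length of the class, 107 ± 6.31 CPM per kb with PBS, and it had the highest log2 change of the class in the 3 groups given bortezomib. PSMA7 stood at 99.4, 111 and 109.9 CPM with PBS, 150, 111 and 120.1 with bortezomib, 117, 99.3 and 122 with elesclomol, 141, 106 and 119 with the combination and 136, 135 and 119.5 with the delayed combination. Its bortezomib libraries lay just above the PBS libraries (0.25 ± 0.13), as did those of the delayed combination (0.29 ± 0.13, edgeR adjusted p = 0.45). PSMA6 was lowest per length, at 4.40 ± 1.35 CPM per kb with PBS. It had 547 reads over the 15 libraries, 79 more lay on its 4 named pseudogenes, and reads shared between these copies make its level uncertain. Its log2 change was 0.44 ± 0.25 with elesclomol and -0.57 ± 0.24 between the combination and elesclomol (adjusted p = 0.365). PSMA6 was also lowest of the class with bortezomib (-0.12) and the delayed combination (-0.16). PSMA4 had the lowest change with the combination (-0.16 ± 0.097), at 94.2 ± 7.69 against 106 ± 2.79 CPM, and PSMA3 the lowest with elesclomol (-0.052 ± 0.15). PSMA2 overlaps MRPL32 on the opposite strand, and the strand setting of the counting is not given in the sources used here.

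The beta subunits hold the protease sites, and theirs was the class furthest above PBS by its median in each treated group given bortezomib. All 6 lay above 0 with bortezomib (median 0.33), with the combination (0.29) and with the delayed combination (0.28), and 5 of 6 with elesclomol (0.13, and 0.029 without elesclomol 3). Their summed level was 544, 553 and 538 CPM with PBS, 807, 585 and 695 with bortezomib, 575, 559 and 644 with elesclomol, 814, 566 and 667 with the combination and 630.4, 762 and 660.5 with the delayed combination. PBS was tight, at 538 to 553 CPM, and each of the 12 treated libraries was above it. They ran from 559 CPM in elesclomol 2 to 814 CPM in combination 1. How often other sets of genes show this pattern was not counted. The GC-rich libraries topped each of the 3 groups given bortezomib. Leaving those 3 libraries out gave medians of 0.15, 0.15 and 0.21 in the same order, and correcting each library for the GC content and length of genes gave 0.21, 0.15 and 0.14. All 6 genes stayed above 0 in the 3 groups under both settings.

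PSMB4 (ENSG00000159377), a structural beta subunit, was the most abundant member per length, at 261 ± 9.21 CPM per kb with PBS. It stood at 257, 257 and 242 CPM with PBS, 376, 280 and 312 with bortezomib, 252, 244 and 289 with elesclomol, 390.4, 274 and 326 with the combination and 289, 375 and 331 with the delayed combination. All 9 libraries given bortezomib lay above the PBS libraries, at 274 CPM or more against 257 CPM or less. Elesclomol 1 and 2 lay among the PBS libraries. The share of all tested genes with this pattern was not counted. The log2 change was 0.36 ± 0.14 with bortezomib (edgeR adjusted p = 0.449), 0.39 ± 0.14 with the combination (0.299), 0.40 ± 0.14 with the delayed combination (0.395) and 0.056 ± 0.14 with elesclomol (0.953). Over the groups with and without elesclomol, the mean effect of bortezomib on PSMB4 was 0.35 ± 0.10, the smallest p of any member in that comparison (adjusted p = 0.241). Without the 3 GC-rich libraries its change was 0.23 with bortezomib, 0.26 with the combination and 0.31 with the delayed combination.

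PSMB2 (ENSG00000126067), another structural subunit, had the highest change of the class with bortezomib (0.47 ± 0.16, adjusted p = 0.427) and with elesclomol (0.30 ± 0.16, adjusted p = 0.68). Its level was 75.2, 86.4 and 82.8 CPM with PBS, 115, 88.4 and 135 with bortezomib, 107, 94.2 and 99.6 with elesclomol, 126, 83.9 and 96.5 with the combination and 93.2, 109.5 and 95.2 with the delayed combination. The 3 PBS libraries were the lowest but for combination 2, which lay between them. The highest was bortezomib 3, which is not a GC-rich library, and the change with bortezomib was 0.46 without those libraries and 0.44 after the GC and length correction. PSMB1 had the lowest change of the class with elesclomol (-0.060 ± 0.14), the combination (0.20 ± 0.14) and the delayed combination (0.19 ± 0.14).

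The catalytic subunits lay above PBS by similar amounts, within a wide spread. PSMB5 (ENSG00000100804), the main target of bortezomib, was lowest of the class per length, at 17.2 ± 3.20 CPM per kb with PBS. It stood at 26.8, 21.4 and 18.6 CPM with PBS, 29.9, 23.1 and 25.6 with bortezomib, 21.7, 19.7 and 27.3 with elesclomol, 31.5, 22.9 and 28.6 with the combination and 22.4, 32.5 and 25.6 with the delayed combination, with each group overlapping PBS. Its log2 change was 0.24 ± 0.18 with bortezomib, the lowest of the class (edgeR adjusted p = 0.582), 0.32 ± 0.18 with the combination and 0.27 ± 0.18 with the delayed combination. PSMB6, the caspase-like subunit, stood at 62.3, 59.9 and 70.9 CPM with PBS, 96.7, 66.05 and 74.5 with bortezomib, 67.6, 68.8 and 85.7 with elesclomol, 89.3, 65.8 and 75.5 with the combination and 77.2, 90.2 and 75.6 with the delayed combination. Only the delayed combination did not overlap PBS for PSMB6 (0.33 ± 0.15, edgeR adjusted p = 0.45). PSMB7, the trypsin-like subunit, stood at 70.7, 75.7 and 77.3 CPM with PBS, 118, 76.2 and 90.9 with bortezomib, 81.5, 84.1 and 91.5 with elesclomol, 111, 72.2 and 81.2 with the combination and 86.7, 95.8 and 82.97 with the delayed combination. The PSMB7 libraries of elesclomol (0.20 ± 0.16) and of the delayed combination (0.25 ± 0.16) lay above PBS without overlap, and bortezomib 2 and combination 2 lay among the PBS libraries. The log2 change of PSMB7 with bortezomib was 0.35 ± 0.16 (adjusted p = 0.465). The plot of 8 genes by library sets PSMB4, PSMB2 and PSMB5 beside members of the other classes.

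**Figure D3:**
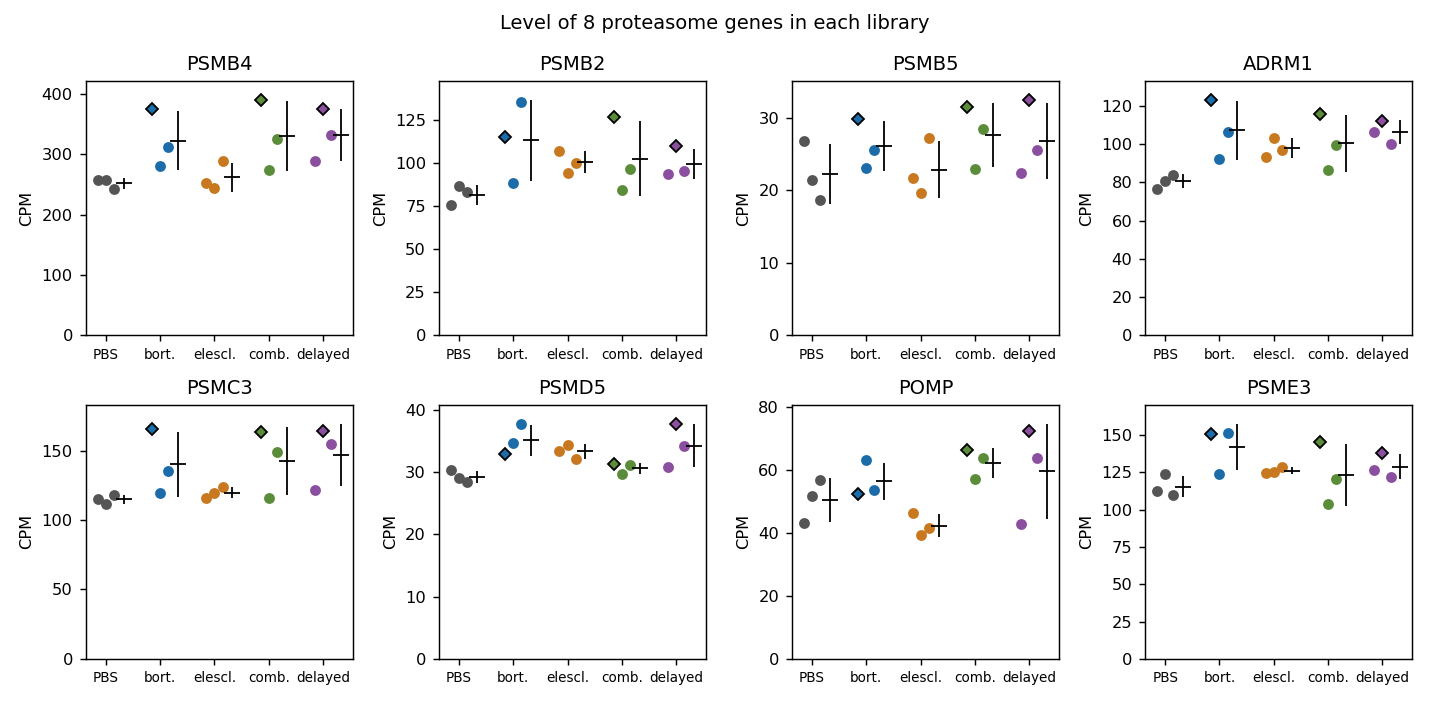
CPM (vertical axes, from 0) of PSMB4, PSMB2, PSMB5, ADRM1, PSMC3, PSMD5, POMP and PSME3 in every library, by group. Points are libraries, diamonds with a black edge are the 3 GC-rich libraries, and the mark with its bar is the mean ± SD of 3 libraries. ADRM1 is above its PBS libraries (76.7 to 84.0 CPM) in all 12 treated libraries, a pattern not counted over all genes. PSMD5 is low with both PBS and the combination.

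By their medians the immunoproteasome genes stood about as far from PBS as all 47 genes did, with wider spread between libraries than PBS showed. They comprise the inducible catalytic subunits PSMB8, PSMB9 and PSMB10 and the 2 subunits of the PA28 activator, PSME1 and PSME2, which caps the core and favours peptide release. All 5 lay above 0 with bortezomib (median 0.23), 3 with elesclomol (0.053), 3 with the combination (0.11) and 4 with the delayed combination (0.14). Their summed level was 219, 221 and 215 CPM with PBS, 294, 212 and 256 with bortezomib, 197, 217 and 264 with elesclomol, 266, 202 and 224 with the combination and 257, 258 and 216 with the delayed combination, and every treated group overlapped PBS. These genes have the highest median GC content of any class (56.1%), and after the GC and length correction the median with bortezomib was 0.028, with the combination -0.11 and with the delayed combination -0.057. The direction of the last 2 thus turned with that correction. Across the 47 genes the correction also turned the correlation between change and GC content from 0.44 to -0.51 with bortezomib. It went from 0.37 to -0.52 with the combination and from 0.44 to -0.38 with the delayed combination, so the trend was reversed and not removed. The median with the combination was 0.040 without combination 1, 0.016 without combination 3 and 0.019 without PBS 1.

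PSMB8 (ENSG00000204264) stood at 50.6, 44.5 and 51.9 CPM with PBS, 66.4, 35.5 and 61.2 with bortezomib, 42.5, 43.5 and 59.3 with elesclomol, 54.5, 40.9 and 43.3 with the combination and 58.5, 60.3 and 42.7 with the delayed combination. Bortezomib 2 held the lowest PSMB8 level of all 15 libraries and bortezomib 1 the highest, so that the group spanned the other 4 (0.15 ± 0.21). PSMB9 (ENSG00000240065) stood at 22.3, 23.4 and 20.5 CPM with PBS, 25.2, 20.6 and 27.3 with bortezomib, 20.2, 23.6 and 32.1 with elesclomol, 24.7, 16.5 and 20.7 with the combination and 25.7, 23.1 and 15.03 with the delayed combination. It had the lowest change of the class with bortezomib (0.14 ± 0.21), the combination (-0.093 ± 0.21) and the delayed combination (-0.055 ± 0.21), and the highest with elesclomol (0.20 ± 0.21). PSMB8 overlaps PSMB9 and PSMB8-AS1 on the opposite strand in the annotation, and reads from the overlap cannot be told apart if the counting ignored strand. On the same strand, PSMB9 overlaps PSMB8-AS1, whose count was 38.4% of its own, and PSMB10 overlaps AC040162.1 (17.1%). Strand cannot separate reads from those 2 overlaps. PSMB10 (ENSG00000205220) stood at 16.9, 21.3 and 20.5 CPM with PBS, 24.8, 22.3 and 21.8 with bortezomib, 18.2, 15.3 and 20.5 with elesclomol, 22.5, 17.5 and 23.5 with the combination and 22.9, 21.6 and 20.4 with the delayed combination. The bortezomib libraries lay just above PBS for PSMB10 (0.23 ± 0.14, adjusted p = 0.527), and the other groups overlapped it. With elesclomol its change was the lowest of the class (-0.12 ± 0.14). Per length, PSMB10 was the lowest of the class on the principal transcript (16.1 ± 1.93 CPM per kb with PBS) and PSMB9 over the union of exons.

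PSME1 (ENSG00000092010) had the highest level per length of these genes, 77.8 ± 8.88 CPM per kb with PBS. It stood at 87.5, 77.5 and 69.7 CPM with PBS, 110.4, 81.1 and 85.6 with bortezomib, 68.2, 83.6 and 91.4 with elesclomol, 104, 76.4 and 83.4 with the combination and 93.1, 92.2 and 85.2 with the delayed combination. Its highest change was with bortezomib (0.24 ± 0.15), and it led the class with the combination (0.17 ± 0.15) and the delayed combination (0.21 ± 0.15). PSME2 (ENSG00000100911) stood at 41.9, 54.4 and 52.6 CPM with PBS, 66.8, 52.7 and 60.6 with bortezomib, 47.98, 50.6 and 60.9 with elesclomol, 60.1, 50.8 and 52.6 with the combination and 56.8, 61.2 and 52.9 with the delayed combination. It had the highest change of the class with bortezomib (0.27 ± 0.13), and PBS 1 was its lowest library.

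The balance of inducible over constitutive catalytic subunits was described within each library as a ratio of CPM per kb. PSMB8 over PSMB5 ranged from 1.75 to 3.21 over the 15 libraries, with means of 2.59 ± 0.54 with PBS, 2.36 ± 0.52 with bortezomib, 2.43 ± 0.16 with elesclomol, 1.93 ± 0.16 with the combination and 2.36 ± 0.58 with the delayed combination. The 3 combination libraries (1.99, 2.05 and 1.75) lay below the 3 PBS libraries (2.18, 2.39 and 3.21). PSMB9 over PSMB6 was 0.377 ± 0.0562 with PBS and 0.291 ± 0.0154 with the combination, again without overlap. With the delayed combination it was 0.286 ± 0.0732, which overlapped PBS. PSMB10 over PSMB7 was 0.211 ± 0.0172 with PBS and 0.197 ± 0.0348 with the combination, and these overlapped. With elesclomol it was 0.169 ± 0.0192, below PBS without overlap. The share of other gene pairs without overlap was not counted. With 3 libraries against 3 an exact permutation test cannot go below p = 0.10, and none was run on these ratios. Their absolute size depends on the transcript lengths used, and the order between groups does not.

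**Figure D4:**
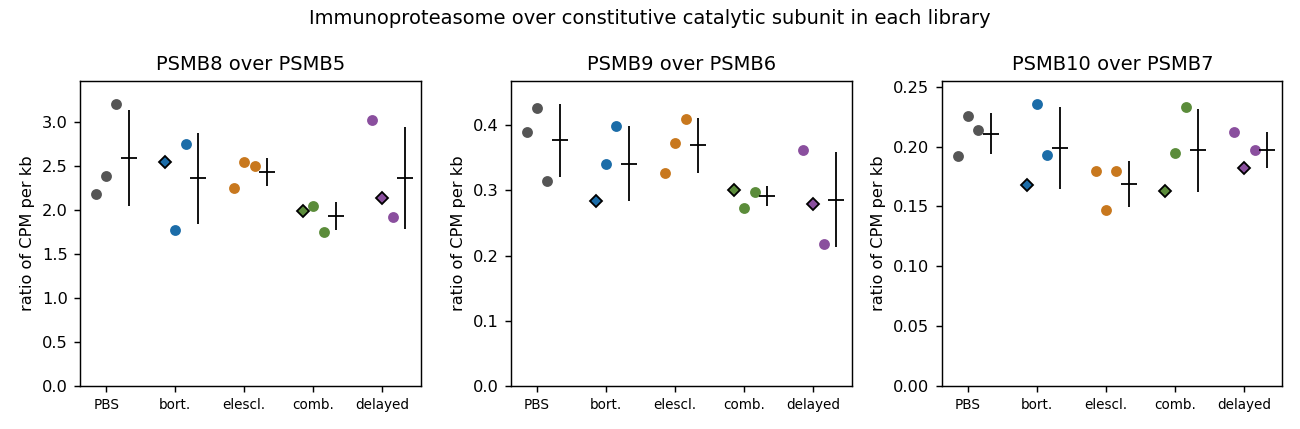
Ratio of CPM per kb (vertical axes, from 0) of each inducible catalytic subunit over its constitutive counterpart in every library, by group. Points are libraries, diamonds with a black edge are the 3 GC-rich libraries, and the mark with its bar is the mean ± SD of 3 libraries. For PSMB8 over PSMB5 and PSMB9 over PSMB6 the combination libraries lie below all PBS libraries, as do the elesclomol libraries for PSMB10 over PSMB7.

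Genes of antigen presentation, which interferon induces together with the immunoproteasome, were set beside these values as a list of 12 non-members. None of the 12 passed edgeR's test in any of the 9 comparisons. For the interaction 3 had an unadjusted p under 0.05, against 8.79% of all tested genes. Between the combination and bortezomib 2 did (4.23% of tested genes), as did 2 between the combination and elesclomol (12.2%). The other comparisons had 0 or 1, against 2.63% to 14.6% of tested genes. Against PBS, 11 lay above 0 with bortezomib (median 0.20), 12 with elesclomol (0.090), 2 with the combination (-0.16) and 5 with the delayed combination (-0.014). Between the combination and bortezomib 0 of the 12 lay above 0 (median -0.34), and PSMB8 (-0.23) and PSMB9 (-0.23) lay below 0 there too. Most members did so in that comparison, with 8 of all 47 genes and 0 of the 5 immunoproteasome genes above 0.

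The 6 ATPases form the ring of the 19S cap that unfolds substrates. With bortezomib 4 of 6 lay above 0 (median 0.19), with elesclomol 3 (0.025), with the combination 3 (0.10) and with the delayed combination 4 (0.17). PSMC3 had the highest level per length, 72.8 ± 1.96 CPM per kb with PBS. PSMC3 (ENSG00000165916) stood at 115, 112 and 118 CPM with PBS, 166, 119 and 135 with bortezomib, 116, 119 and 124 with elesclomol, 163, 116 and 149 with the combination and 122, 164 and 155 with the delayed combination. The bortezomib and delayed combination libraries lay above PBS, the elesclomol libraries lay at 116 to 124 CPM around PBS 3, and combination 2 overlapped PBS. Its log2 change was 0.29 ± 0.14 with bortezomib (edgeR adjusted p = 0.479), 0.31 ± 0.14 with the combination (0.361) and 0.35 ± 0.14 with the delayed combination (0.426), the highest ATPase in the last 2.

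PSMC4 stood at 78.8, 81.3 and 86.1 CPM with PBS, 125, 89.4 and 100.1 with bortezomib, 83.1, 91.1 and 99.1 with elesclomol, 118, 80.5 and 94.96 with the combination and 99.2, 104 and 95.4 with the delayed combination. Its bortezomib and delayed combination libraries did not overlap PBS, and the change with bortezomib was 0.36 ± 0.14 (adjusted p = 0.449). PSMC5 had the highest ATPase change with bortezomib (0.42 ± 0.18, adjusted p = 0.458) and with elesclomol (0.36 ± 0.18, adjusted p = 0.649). PSMC5 stood at 40.05, 40.7 and 52.6 CPM with PBS, 65.6, 43.1 and 69.8 with bortezomib, 66.05, 49.4 and 56.3 with elesclomol, 59.8, 42.7 and 51.6 with the combination and 52.9, 57.04 and 49.3 with the delayed combination, with PBS 3 above bortezomib 2 and elesclomol 2. It overlaps FTSJ3 on the opposite strand, so its counts are uncertain if strand was ignored. PSMC2 stood at 104, 97.8 and 99.9 CPM with PBS, 114, 101 and 107 with bortezomib, 88.4, 106 and 104 with elesclomol, 117, 93.9 and 90.03 with the combination and 103, 114 and 102 with the delayed combination. Its changes ran from -0.021 with elesclomol to 0.090 with bortezomib.

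PSMC6 had the lowest change of the ATPases with elesclomol (-0.14 ± 0.13), and its delayed combination libraries (20.4 ± 0.245 CPM) lay below PBS (24.5 ± 2.51 CPM, -0.26 ± 0.13). PSMC1 was the lowest member of all per length, at 0.372 ± 0.154 CPM per kb with PBS. It had 165 reads over the 15 libraries, 111 reads lay on 13 named pseudogenes, and it overlaps NRDE2 on the opposite strand, so its changes (-0.20 with bortezomib, -0.53 with the combination and -0.51 with the delayed combination, the lowest of the class) rest on a level that these counts do not fix.

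Among the 12 other 19S subunits, which bind ubiquitin, remove it and hold the lid together, all 12 lay above 0 with bortezomib, with a median of 0.24. With elesclomol 11 lay above 0 (median 0.11), with the combination 9 (0.16) and with the delayed combination 11 (0.14). Without the 3 GC-rich libraries the medians were 0.14 with bortezomib, 0.054 with the combination and 0.091 with the delayed combination. Leaving out bortezomib 1 alone gave 0.14, and leaving out combination 1 alone gave 0.054. After the GC and length correction, which reversed the members' trend with GC content, they were 0.14, -0.002 and 0.079. The median with the combination was then near 0. PSMD2, a scaffold of the base, was highest of the class per length at 65.3 ± 5.38 CPM per kb with PBS. The lowest was PSMD12, at 12.96 ± 1.29 CPM per kb on its principal transcript, though PSMD6 was lower over the union of all exons.

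ADRM1 (ENSG00000130706), a ubiquitin receptor that also docks the deubiquitinase UCHL5, showed the smallest p of any member with bortezomib, elesclomol and the delayed combination. It stood at 76.7, 80.96 and 84.01 CPM with PBS, 123, 92.2 and 106 with bortezomib, 93.2, 104 and 97.2 with elesclomol, 116, 86.3 and 99.5 with the combination and 107, 112 and 99.9 with the delayed combination. Each of the 12 treated libraries lay above the 3 PBS libraries, with combination 2 nearest to them and bortezomib 1 furthest. How many of all tested genes show such a pattern was not counted. The log2 change was 0.41 ± 0.12 with bortezomib (edgeR adjusted p = 0.419), 0.28 ± 0.12 with elesclomol (0.589), 0.32 ± 0.12 with the combination (0.316) and 0.40 ± 0.12 with the delayed combination (0.33), the highest of the class each time. ADRM1 has the highest GC content of the 47 genes (64.2%) and overlaps LAMA5 on the opposite strand, whose count was 26.1% of its own. After the GC and length correction its changes were 0.21, 0.19, 0.072 and 0.20, and without the 3 GC-rich libraries 0.30, 0.29, 0.21 and 0.37. Across the 47 genes that correction turned the correlation between change and GC content negative in each comparison with PBS.

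PSMD4, the other main ubiquitin receptor, stood at 84.2, 79.3 and 78.2 CPM with PBS, 107, 82.8 and 95.4 with bortezomib, 79.3, 86.2 and 93.9 with elesclomol, 103, 79.4 and 92.99 with the combination and 77.98, 110.3 and 90.2 with the delayed combination, with PBS 1 inside each treated group. Its change was 0.24 ± 0.14 with bortezomib. PSMD14, the deubiquitinase that removes chains at the pore, was the steadiest of the 47 genes at 117, 121 and 128 CPM with PBS, 135, 128 and 120.5 with bortezomib, 112, 129 and 109.9 with elesclomol, 127, 116 and 118 with the combination and 133, 128 and 117 with the delayed combination. It had the lowest change of the class with bortezomib (0.071 ± 0.093) and with elesclomol (-0.059 ± 0.093). PSMD11, a lid subunit, stood at 96.97, 111 and 116 CPM with PBS, 148, 104 and 134 with bortezomib, 120, 129 and 119.5 with elesclomol, 139.8, 95.1 and 101 with the combination and 119.8, 127 and 108 with the delayed combination. Its elesclomol libraries lay above PBS without overlap (0.19 ± 0.15), and the combination spanned it (0.053 ± 0.15). PSMD12, another lid subunit, stood at 52.2, 63.3 and 55.7 CPM with PBS, 48.96, 66.96 and 73.2 with bortezomib, 69.2, 65.7 and 61.5 with elesclomol, 52.9, 61.6 and 62.7 with the combination and 56.4, 56.1 and 58.2 with the delayed combination. In the bortezomib group bortezomib 1, a GC-rich library, was the lowest of all 15 for PSMD12 and bortezomib 3 the highest, and PSMD12 has a low GC content (37.9%). PSMD1 had the lowest change of the class with the combination (-0.096 ± 0.13) and PSMD12 with the delayed combination (-0.007 ± 0.13). PSMD7, a partner of PSMD14, stood above PBS without overlap with bortezomib (60.1 ± 5.53 against 51.2 ± 1.53 CPM, 0.23 ± 0.099), with elesclomol (0.11 ± 0.099) and with the delayed combination (0.13 ± 0.098).

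Assembly factors build the core and the base and leave them when they mature. Of the 8, 7 lay above 0 with bortezomib (median 0.12), 5 with elesclomol (0.071), 6 with the combination (0.071) and 7 with the delayed combination (0.15). POMP (ENSG00000132963), which guides the closing of the 20S rings and is degraded as the first substrate, was highest per length at 37.9 ± 5.23 CPM per kb with PBS, and PSMD9 was lowest at 4.08 ± 0.498 CPM per kb. POMP stood at 42.97, 51.5 and 56.8 CPM with PBS, 52.2, 63.2 and 53.5 with bortezomib, 46.2, 39.2 and 41.4 with elesclomol, 66.2, 56.9 and 63.6 with the combination and 42.8, 72.2 and 63.6 with the delayed combination. The elesclomol libraries lay at the low end and the combination libraries at the high end, and they did not overlap, while delayed combination 1 (42.8 CPM) lay far from the other two of its group. Between the combination and elesclomol the log2 change was 0.56 ± 0.16, the smallest p of any member in that comparison (edgeR adjusted p = 0.242). Against PBS it was 0.30 ± 0.16 with the combination (lowest library 56.9 against a highest of 56.8 CPM, adjusted p = 0.416) and -0.26 ± 0.17 with elesclomol, the lowest of the class. POMP has the lowest GC content of the 47 genes (34.0%).

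PSMD5 (ENSG00000095261), a chaperone of the 19S base, stood at 30.4, 29.01 and 28.5 CPM with PBS, 32.9, 34.8 and 37.8 with bortezomib, 33.4, 34.5 and 32.1 with elesclomol, 31.3, 29.7 and 31.1 with the combination and 30.9, 37.8 and 34.3 with the delayed combination. The bortezomib, elesclomol and delayed combination libraries all lay above PBS, and the combination libraries overlapped it and lay below those of bortezomib and of elesclomol. The log2 change was 0.26 ± 0.099 with bortezomib and 0.19 ± 0.098 with elesclomol, the highest of the class in both, and 0.069 ± 0.099 with the combination (adjusted p = 0.449, 0.679 and 0.759). PSMG1, which pairs with PSMG2 to assemble the alpha ring, stood at 36.7, 43.8 and 38.5 CPM with PBS, 50.6, 44.3 and 42.9 with bortezomib, 41.5, 45.2 and 38.8 with elesclomol, 51.6, 37.1 and 45.6 with the combination and 41.5, 55.4 and 49.9 with the delayed combination. It had the highest change of the class with the delayed combination (0.30 ± 0.14), led by the GC-rich delayed combination 2. PSMG4, which pairs with PSMG3, lay above PBS without overlap with the combination (24.4 ± 2.72 against 20.4 ± 0.563 CPM, 0.26 ± 0.13). PSMG3 had the lowest change with bortezomib (-0.11 ± 0.20), and PSMD9 the lowest with the combination (-0.042 ± 0.19) and the delayed combination (-0.007 ± 0.18).

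The other regulators are the nuclear activator PSME3, the activator PSME4 and the inhibitor PSMF1. PSME3 was highest per length on both length measures and PSME4 lowest (116 ± 7.28 and 11.2 ± 1.57 CPM per kb with PBS). PSME3 (ENSG00000131467) stood at 112, 124 and 110.2 CPM with PBS, 151, 124 and 152 with bortezomib, 124, 126 and 129 with elesclomol, 145, 104 and 121 with the combination and 126, 138 and 122 with the delayed combination. Bortezomib (0.30 ± 0.12, adjusted p = 0.449) and elesclomol (0.13 ± 0.12) did not overlap PBS, and combination 2 was the lowest library of all. PSME3 overlaps BECN1 on the opposite strand. PSME4 stood at 67.05, 83.5 and 88.3 CPM with PBS, 72.8, 83.8 and 93.2 with bortezomib, 105, 79.4 and 76.7 with elesclomol, 75.6, 75.2 and 66.1 with the combination and 72.9, 81.1 and 73.2 with the delayed combination, with overlap between PBS and each treated group. Its change was the lowest of the 3 in all 4 groups, at 0.061, 0.13, -0.14 and -0.074 in the order above. PSMF1 stood at 61.6, 60.8 and 70.6 CPM with PBS, 81.4, 61.2 and 81.5 with bortezomib, 72.4, 68.4 and 73.5 with elesclomol, 77.96, 58.1 and 63.2 with the combination and 70.8, 66.3 and 70.05 with the delayed combination, with a change of 0.22 ± 0.13 with bortezomib. With elesclomol its change (0.15 ± 0.13) was the highest of the 3 regulators.

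Log2 changes of the members were correlated with GC content, as were those of all genes. With bortezomib the correlation between log2 change and GC content was 0.44 across the 47 genes, close to 0.40 across 12794 tested genes. It was 0.37 with the combination and 0.44 with the delayed combination (0.41 and 0.33 over the tested genes), and 0.25 with elesclomol. These are correlations across genes that share libraries, and genes are not replicates. Without the 3 GC-rich libraries the correlation was 0.08 with bortezomib, 0.17 with the combination and 0.46 with the delayed combination, and the median change with bortezomib was 0.13, with 38 of 47 above 0. After the correction for GC content and length the correlation with bortezomib was -0.51, with a median change of 0.12 and 41 above 0. The corrected correlation was -0.52 with the combination, -0.38 with the delayed combination and -0.39 with elesclomol. Among the members the correction thus reversed the trend and did not remove it. For the combination the medians were 0.041 and 0.044 (27 and 29 above 0), and for the delayed combination 0.097 and 0.084 (37 and 37 above 0). The beta and alpha subunits differ in GC content, with medians of 50.8% and 42.1%, and the gap between their median changes with bortezomib, 0.33 against -0.004, was 0.21 against 0.10 after the correction.

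**Figure D5:**
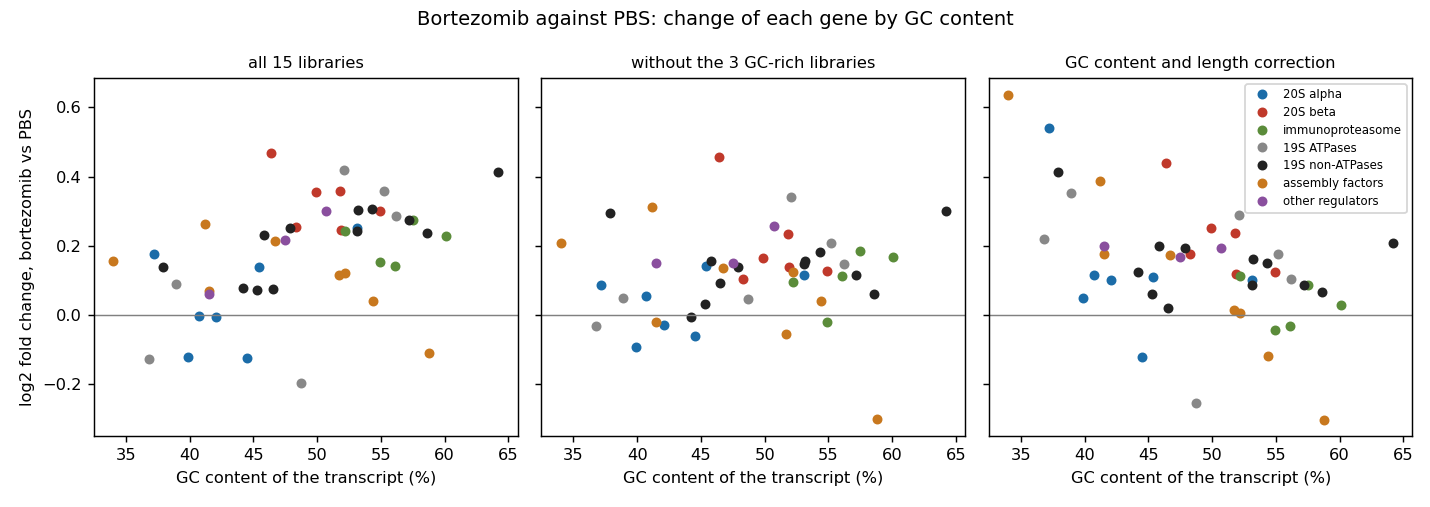
Log2 fold change of bortezomib against PBS (vertical axis) by the GC content of the transcript in percent (horizontal axis) for each of the 47 genes, coloured by class, with all 15 libraries, without the 3 GC-rich libraries and after the correction for GC content and length. The upward trend of the first panel (correlation 0.44) is 0.08 in the middle panel and -0.51 in the last, and most genes lie above 0 in each.

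The next comparison shows what elesclomol added to bortezomib. Between the combination and bortezomib 0 of 47 passed edgeR's test (0% of tested genes) and 0 had an unadjusted p under 0.05 (4.23% of tested genes). DESeq2 and limma voom passed 0, against 0.00765% and 0.267% of tested genes. The median was -0.089 with 8 of 47 above 0, against -0.012 over all tested genes, and 0 of 12 non-ATPases lay above 0. This median was 0.001 without combination 2, -0.20 without combination 1, -0.043 without bortezomib 1 and -0.16 without bortezomib 2. The smallest p values were those of PSMD5 (-0.19 ± 0.097), PSME3 (-0.21 ± 0.12), PSMG4 (0.22 ± 0.13) and PSMA4 (-0.16 ± 0.097), each with an edgeR adjusted p of 0.999. In this comparison the log2 changes ran from -0.17 (PSMA5) to 0.001 (PSMA6) among the alpha subunits, from -0.14 (PSMB2) to 0.078 (PSMB5) among the beta subunits and from -0.23 (PSMB9) to -0.071 (PSME1) among the immunoproteasome genes. They ran from -0.33 (PSMC1) to 0.036 (PSMC6) among the ATPases and from -0.20 (PSMD11) to -0.026 (PSMD13) among the other 19S subunits, and from -0.19 (PSMD5) to 0.22 (PSMG4) among the assembly factors and from -0.21 (PSME3) to -0.17 (PSMF1) among the other regulators. The highest of all was that of PSMG4. Its combination libraries lay above the bortezomib libraries without overlap, and those of PSMD5 lay below. No other member was without overlap there, while 558 of the 13085 tested genes were higher without overlap and 514 lower.

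Between the combination and elesclomol, the comparison that adds bortezomib, 0 of 47 passed (0% of tested genes) and 3 had an unadjusted p under 0.05 (12.2% of tested genes). DESeq2 passed 0 (0.405% of tested genes), limma voom passed 1 (POMP, adjusted p = 0.0472, with 1.57% of tested genes) and edgeR without a filter on low counts passed 1 (POMP, with 0.83% of tested genes). The median was 0.039 with 30 of 47 above 0 (all tested genes -0.006), and all 6 beta subunits lay above 0 (median 0.16). Over the 47 genes the median was -0.074 without combination 1, 0.066 without combination 2 and 0.008 without elesclomol 1. After the GC and length correction it was -0.011, with 22 of 47 above 0. PSMB4 had the second smallest p after POMP (0.33 ± 0.14, edgeR adjusted p = 0.359), followed by PSMA6 and by PSME4 (-0.27 ± 0.14, adjusted p = 0.451). The elesclomol libraries of PSME4 all lay above those of the combination. In this comparison 1 member was higher and 3 were lower without overlap, against 1121 and 978 of the 13085 tested genes. By class, log2 changes of the combination against elesclomol ran from -0.57 (PSMA6) to 0.16 (PSMA1) among the alpha subunits, from 0.030 (PSMB2) to 0.33 (PSMB4) among the beta subunits and from -0.29 (PSMB9) to 0.23 (PSMB10) among the immunoproteasome genes. Changes ran from -0.52 (PSMC1) to 0.25 (PSMC3) among the ATPases and from -0.15 (PSMD12) to 0.14 (PSMD3) among the other 19S subunits, and from -0.14 (PSMD9) to 0.56 (POMP) among the assembly factors and from -0.27 (PSME4) to -0.034 (PSME3) among the other regulators.

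Averaged over both backgrounds, the effect of bortezomib gave 0 of 47 passing (0% of tested genes) and 8 with an unadjusted p under 0.05 (14.6% of tested genes). DESeq2 passed 0 (0.102% of tested genes), limma voom 3 (PSMB4, POMP and PSMC3, with 4.74% of tested genes) and edgeR without a filter 2 (PSMB4 and POMP, with 0.761% of tested genes). After PSMB4, the smallest p values were those of POMP (0.36 ± 0.12, edgeR adjusted p = 0.26), ADRM1 (0.23 ± 0.085, 0.281) and PSMC3 (0.27 ± 0.10, 0.281). The median of that effect was 0.13 with 36 of 47 above 0 (all tested genes 0.008), and 0.25 over the beta subunits. Without combination 1 it was 0.080. The averaged effects ran from -0.34 (PSMA6) to 0.18 (PSMA7) among the alpha subunits, from 0.18 (PSMB6) to 0.35 (PSMB4) among the beta subunits and from -0.076 (PSMB9) to 0.23 (PSMB10) among the immunoproteasome genes. These effects ran from -0.36 (PSMC1) to 0.27 (PSMC3) among the ATPases and from -0.018 (PSMD1) to 0.23 (ADRM1) among the other 19S subunits, and from -0.015 (PSMD9) to 0.36 (POMP) among the assembly factors and from -0.10 (PSME4) to 0.13 (PSME3) among the other regulators.

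The interaction asks whether bortezomib acted differently with elesclomol than without it. It gave 0 of 47 passing against 0.00764% of tested genes, and 3 with an unadjusted p under 0.05, against 8.79%. DESeq2 passed 0 (0.245% of tested genes) and limma voom 1 (PSMB2, -0.67, adjusted p = 0.0462, with 2.37% of tested genes). The median was -0.16 with 10 of 47 above 0, against -0.012 over all tested genes. It was -0.059 without bortezomib 1, -0.24 without bortezomib 2, -0.26 without combination 1 and -0.077 without combination 2. The smallest p values were those of PSMD5 (-0.38 ± 0.14, edgeR adjusted p = 0.465), PSMC5 (-0.57 ± 0.25, 0.542), ADRM1 (-0.37 ± 0.17, 0.551) and PSME3 (-0.33 ± 0.17, 0.612). For PSMB4 and PSMB5 it was near 0 (-0.023 ± 0.20 and 0.028 ± 0.26), and for POMP it was positive (0.40 ± 0.23). Interaction values ran from -0.44 (PSMA6) to 0.023 (PSMA1) among the alpha subunits, from -0.44 (PSMB2) to 0.028 (PSMB5) among the beta subunits and from -0.44 (PSMB9) to 0.003 (PSMB10) among the immunoproteasome genes. Further values ran from -0.57 (PSMC5) to 0.17 (PSMC6) among the ATPases and from -0.38 (PSMD11) to -0.030 (PSMD14) among the other 19S subunits, and from -0.38 (PSMD5) to 0.40 (POMP) among the assembly factors and from -0.33 (PSME3) to -0.32 (PSMF1) among the other regulators.

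Starting elesclomol later gave no difference that passed the test. Between the delayed combination and the combination 0 of 47 passed (0% of tested genes), 0 had an unadjusted p under 0.05 (2.63% of tested genes), and DESeq2 and limma voom passed 0 (0% of tested genes by either). The median was 0.045 with 36 of 47 above 0 (all tested genes -0.005). It was 0.16 without combination 1, 0.095 without delayed combination 3, -0.014 without combination 2 and -0.007 without delayed combination 2, so that its direction depended on single libraries. PSMA4 (0.18 ± 0.096), PSMD5 (0.16 ± 0.095), PSMC6 (-0.17 ± 0.13) and PSMD1 (0.15 ± 0.13) had the smallest p, each with an adjusted p of 1. Across the classes, log2 changes ran from -0.040 (PSMA6) to 0.18 (PSMA4) among the alpha subunits, from -0.049 (PSMB5) to 0.074 (PSMB6) among the beta subunits and from 0.028 (PSMB10) to 0.22 (PSMB8) among the immunoproteasome genes. Log2 changes also ran from -0.17 (PSMC6) to 0.079 (PSMC2) among the ATPases and from -0.053 (PSMD12) to 0.15 (PSMD1) among the other 19S subunits, and from -0.10 (PSMG4) to 0.17 (PSMG3) among the assembly factors and from 0.055 (PSMF1) to 0.066 (PSME4) among the other regulators.

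Genes that steer or serve the proteasome without being members were taken as a list of 21 tested genes, among them NFE2L1, NFE2L2, NGLY1, DDI2, VCP and the shuttle and ubiquitin genes. None of the 21 passed edgeR's test in any of the 9 comparisons. In each, 0 to 2 had an unadjusted p under 0.05, against 2.63% to 14.6% of all tested genes. With bortezomib 14 lay above 0 (median 0.060), with elesclomol 8 (-0.027), with the combination 8 (-0.059) and with the delayed combination 8 (-0.075). NFE2L1, which encodes NRF1, stood at 116, 130.5 and 142 CPM with PBS, 169, 137 and 168 with bortezomib, 133, 143 and 159 with elesclomol, 153, 128 and 151 with the combination and 139, 165 and 146 with the delayed combination. PBS 3 overlapped each treated group, and the change with bortezomib was 0.29 ± 0.12 (edgeR adjusted p = 0.457). NFE2L2, which encodes NRF2, stood at 38.5, 41.9 and 41.4 CPM with PBS, 32.6, 36.4 and 34.1 with bortezomib, 33.6, 33.8 and 30.9 with elesclomol, 28.3, 32.8 and 32.4 with the combination and 30.7, 32.8 and 36.4 with the delayed combination. All 12 treated libraries lay below the 3 PBS libraries for NFE2L2, and the share of all tested genes with this pattern was not counted. Its log2 change was -0.24 ± 0.10 with bortezomib and -0.31 ± 0.10 with elesclomol (edgeR adjusted p = 0.457 and 0.445). It was -0.39 ± 0.10 with the combination and -0.29 ± 0.098 with the delayed combination (edgeR adjusted p = 0.204 and 0.384). NGLY1, the glycanase that processes NRF1, was at 94.1 ± 1.43 CPM with PBS and 78.3 ± 14.7 with bortezomib, and its libraries overlapped there but not with the other 3 treatments (-0.31, -0.31 and -0.28). DDI2, the protease that cleaves NRF1, stood within -0.088 to 0.022 of PBS.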

How the data were processed

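RNA from 15 libraries, 3 in each of 5 groups, was prepared as stranded total RNA with ribosomal RNA removed, per the labels' protocols. The deposited values are raw read counts per gene. STAR 2.5.4b, featureCounts 1.6.1 and GRCh37 are named in the submitters' processing notes. For the annotation release, the strand setting and the handling of mouse reads, nothing was given in the sources used here. Gene names, lengths and GC content came from GENCODE 29, and 5435 identifiers without a name held 1.07% of counts. The 47 genes, their classes and the other gene lists were chosen with earlier results of these data known.

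Genes were kept by edgeR's filter on low counts (minimum count 10), which left 13085, scaled by TMM and tested with edgeR 4.0.16 (robust quasi-likelihood F test, all 15 libraries in 1 fit, 10 residual degrees of freedom, Benjamini-Hochberg adjustment, threshold 0.05) in R 4.3.3. All p-values in the text are edgeR's unless DESeq2 or limma is named. The bortezomib effect over both backgrounds is the mean of its effects without and with elesclomol, and the interaction is the second minus the first. The rule for named genes took the 4 members with the smallest p in each comparison where fewer passed, the lowest and highest level per length and log2 change of each class, and, with every library, the catalytic subunits, ubiquitin receptors, activators and a fixed set of others; remaining names were added after their values were seen. Levels per length used the principal transcript. Alternatives were DESeq2 1.42.0, limma 3.58.1 (voom with quality weights), other size factors, no filter, only the groups compared, the replicate block, removal of mitochondrial genes, of 3 GC-rich libraries or of each library in turn, and a loess correction for GC content and length, available for 97.8% of tested genes. Deviations from group means correlated above 0.1 for all 3 same-numbered pairs only between bortezomib and combination (0.655, 0.523 and 0.118). This was read from the data and not from the labels. Combination 3 correlated more with bortezomib 2 (0.222), and combination 1 with delayed combination 2 at 0.473. No pair of libraries within a group was a duplicate. The chi-square over degrees of freedom within groups, which also grows with depth, was 2.25 to 3.24 for PBS pairs and 5.64 to 27.3 for treated pairs. The fit used 1 spread per gene for all groups. The test was tried on simulated counts for 13085 genes, where it recovered 22% of 1.5-fold and 76% of 2-fold changes for bortezomib against PBS. PSMB3 was left out because no identifier matched.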

Additional observations from a re-analysis of the deposited data

Results flagged for a closer look

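PSMD5, a chaperone of the 19S base, was set apart because its libraries moved in opposite directions under bortezomib without and with elesclomol. Without elesclomol, the 3 bortezomib libraries all lay above the 3 PBS libraries. With elesclomol, the 3 combination libraries all lay below the 3 elesclomol libraries. The difference between these effects, the interaction, was -0.382 on the log2 scale and did not pass edgeR's test (adjusted p = 0.465). It was -0.44 without the 3 GC-rich libraries and -0.44 after the GC and length correction. Only the 47 members were searched for this pattern, and its share over all tested genes was not counted. Non-overlap in 1 comparison was common among all genes. With bortezomib 10.5% were higher than with PBS, and 978 of 13085 were lower with the combination than with elesclomol.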

How the results depend on the processing

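The count of members that passed was 0 in all 9 comparisons under DESeq2, DESeq2 size factors, fits of only the groups compared, removal of mitochondrial genes, the GC and length correction, removal of the 3 GC-rich libraries, both of these together (chosen after seeing the data) and removal of each library in turn. Limma voom with quality weights passed 6 with bortezomib (5.66% of all tested genes), 3 with the combination (10.7%), 1 between the combination and elesclomol (POMP; 1.57%), 3 for the bortezomib effect over both backgrounds (4.74%) and 1 for the interaction (PSMB2; 2.37%). Without a filter on low counts, 1 passed between the combination and elesclomol (POMP, adjusted p = 0.0103; 0.83% of genes) and 2 for the bortezomib effect (PSMB4, 0.00855, and POMP, 0.0316; 0.761%). The cause was not tested. Of the other values recomputed, 1332 class medians stayed within the spread between replicates and 58 did not. Leaving out 1 of 3 libraries seldom shifts a group mean by as much as that spread. The tally thus cannot show that the medians were stable, and some medians given above turned direction without 1 library. The replicate block gave 0 in each comparison and changed no other call. It also gave 0 in the fit of only the bortezomib and combination libraries (smallest edgeR adjusted p 0.488). That fit was chosen after seeing the data, as all same-numbered pairs correlated above 0.1 only between these groups. Small differences were hard to detect with these libraries: in the simulated counts for bortezomib against PBS 22% of 1.5-fold changes were recovered, and the largest change of a member there was that of PSMB2, 0.47 on the log2 scale by edgeR, which limma voom put at 0.61. The parts of depth, replicate number and spread in this were not tested.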
